A study of Drosophila melanogaster with 6 samples.

Results

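The regions described here are places in the Drosophila melanogaster genome where CrebA was found with fkh-Gal4 and in wild-type embryos but not with sage-Gal4. They were selected on the authors' peak calls: peaks of all lists that overlapped by at least 1 bp were merged, and a region was kept when it held a peak of the fkh-Gal4 list and of the Oregon R list and none of the sage-Gal4 list. This gave 446 of 15071 merged regions. They are called fkh-Gal4/Oregon R regions below, and their heights are given as a description, since the peak calls chose them.

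The series has 6 libraries from embryos of stages 11 to 16, an immunoprecipitation and an input for each genotype. The fkh-GAL4::UAS-CrebA-GFP and sage-GAL4::UAS-CrebA-GFP embryos express CrebA fused at its C-terminus to GFP from a UAS transgene, which the yeast activator Gal4 switches on wherever its driver is active, and were precipitated with anti-GFP. Oregon R embryos, a wild-type strain, carry no tag and were precipitated with anti-CrebA, so the antibody differs between the driver lists and the Oregon R list. Whole embryos were used in each case. Either driver is active in several tissues, of which the salivary gland is the one they share per the series description; that description also places endogenous CrebA in the proventriculus, trachea and epidermis. Embryos were collected over 8 h at room temperature, aged for 11 h and fixed in 1.8% formaldehyde, and chromatin came from 2 collections. Every genotype gives a single immunoprecipitation library and a single peak list, so nothing was tested between lists. The inputs are not analysed here.

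CrebA is a bZIP transcription factor of the CREB3 family, whose members switch on genes of the secretory pathway. In the fly embryo it is best known for raising secretory capacity in the salivary gland. Factors of this kind bind near promoters as well as in introns and between genes. The fkh-Gal4 driver takes its control sequences from fork head, a gene of the salivary gland and of the gut ends. The fkh-Gal4 peak of a region may come from any tissue in which that driver is active, and the Oregon R peak from any tissue with endogenous CrebA. These need not be the same tissue, and peak lists from whole embryos cannot tell tissues apart.

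The best ranked fkh-Gal4/Oregon R regions lay near Blimp-1, at CG15628 and within Hers, in that order. Regions were ranked by the worse of their ranks by fold enrichment in the fkh-Gal4 list of 6464 peaks and the Oregon R list of 14039 peaks. Fold enrichment is the authors' own value, the signal at a peak summit over the local background of the peak caller. First was a region between genes at chr3L:5627802-5628584 (dm6), 2741 bp from the nearest gene end, that of Blimp-1, which encodes a zinc finger repressor of the PRDM family. Its fold enrichment was 2.24 in the fkh-Gal4 list, rank 767, and 2.91 in the Oregon R list, rank 583. The summits of the lists were 21 bp apart, and the closest sage-Gal4 peak lay 1989 bp away.

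Blimp-1 had company. A further region at chr3L:5621865-5622336 was also nearest to Blimp-1, at 8857 bp. Its folds were 1.86 in fkh-Gal4, rank 2225, and 2.35 in Oregon R, rank 2810. With a weaker one nearest to Eaf6, at folds of 1.60 and 1.81, these formed a run of 3 regions over chr3L:5608857-5628584. The highest fkh-Gal4 fold of all 446 regions, 2.35, came second in the ranking. It belonged to a region at chr2L:4820404-4822384, 385 bp from the end of CG15628, with an Oregon R fold of 2.69. There the fkh-Gal4 and Oregon R summits were 1 bp apart, and the closest sage-Gal4 peak was 6679 bp away.

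Several of the next regions lay inside genes and away from their ends. At chr2L:4219901-4222192 a region stood within ft, the atypical cadherin gene of the Hippo pathway, 1138 bp from its end, with folds of 2.08 in fkh-Gal4 and 2.49 in Oregon R. At chr3R:20259447-20260505 another stood within cic, which encodes an HMG-box repressor controlled by EGF receptor signalling, with folds of 1.91 and 2.68 and a sage-Gal4 peak only 259 bp away. At chr2R:24828743-24829691 a region lay in Dll, the homeobox gene of the limbs, with folds of 1.88 and 2.50 and the nearest sage-Gal4 peak 13706 bp away. A region at chrX:19897609-19898430 lay in Hers, a regulator of histone gene silencing, with amn as the nearest gene end at 7846 bp and folds of 2.04 and 2.73. At chr2L:20995702-20996648 a region was inside CG42238, 30823 bp from a gene end, with folds of 1.87 and 2.39.

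Others of the 12 best ranked regions were at gene ends. Np, which encodes a membrane serine protease, had a summit 725 bp from its end, with folds of 1.98 in fkh-Gal4 and 2.72 in Oregon R. That region, at chr2R:9004935-9007300, differed from the others in that its summits were 1191 bp apart. The region at chr3R:26717189-26717681 served CG6425 at 113 bp and Yif1, a gene of ER to Golgi transport, at 369 bp. Its folds were 1.98 and 2.72, and a sage-Gal4 peak lay 123 bp from its edge. Cyt-c1L, a gene related to cytochrome c1, had a region 726 bp away with folds of 2.09 and 2.54. A region at CG5509, 459 bp from its end and inside CG18549, had folds of 1.85 and 2.66. The remaining one, at chr4:982474-983700, lay between genes, 4490 bp from fuss, a gene of the Ski/Sno family of TGF-beta corepressors, with folds of 1.96 and 2.60. Of these 12 regions 7 had no gene end within 1000 bp of the fkh-Gal4 summit.

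Taken over all 446, the regions were low in the fkh-Gal4 list. Their fkh-Gal4 folds ran from 1.38 to 2.35, with quartiles of 1.58 and 1.77 and a median of 1.66. In the regions found in all 3 lists, which number 3480, the median was 1.87. The median region stood at percentile 34.5 of the fkh-Gal4 list, where the percentile is the share of peaks at or below its fold, and regions of all 3 lists at percentile 66.5. In the highest 10% of that list lay 1 of the 446 fkh-Gal4/Oregon R regions, against 581 of the 3480. The −log10 q of their fkh-Gal4 peak, the caller's adjusted significance, had a median of 3.06, against 6.23 for regions of all 3 lists. For 59 of the 446 it was under 2, close to the lowest value in the list.

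In the Oregon R list their heights spread more widely. The Oregon R folds ran from 1.32 to 3.60 with a median of 1.80, against 2.19 for regions of all 3 lists, and the median percentiles were 43.7 and 72.1. In the highest 10% of the Oregon R list lay 31 of the 446. The highest, with an Oregon R fold of 3.60 and rank 58, spanned chr2R:23353276-23357800 at CG3500 and Rpi, the ribose-5-phosphate isomerase gene, yet its fkh-Gal4 fold was 1.67. Next came a region between genes at chr2R:13027999-13028985, 15893 bp from CG13323, with folds of 1.63 in fkh-Gal4 and 3.42 in Oregon R. A region within CG3638 at chrX:1228704-1230985 had 1.80 and 3.35. Across the 446 regions the folds of the 2 lists were weakly related, with a Spearman rho of 0.27 and a Pearson r of 0.24, close to the 0.30 and 0.33 across the 3480 regions of all 3 lists. Regions are not replicates, and each list is 1 library.

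**Figure D1:**
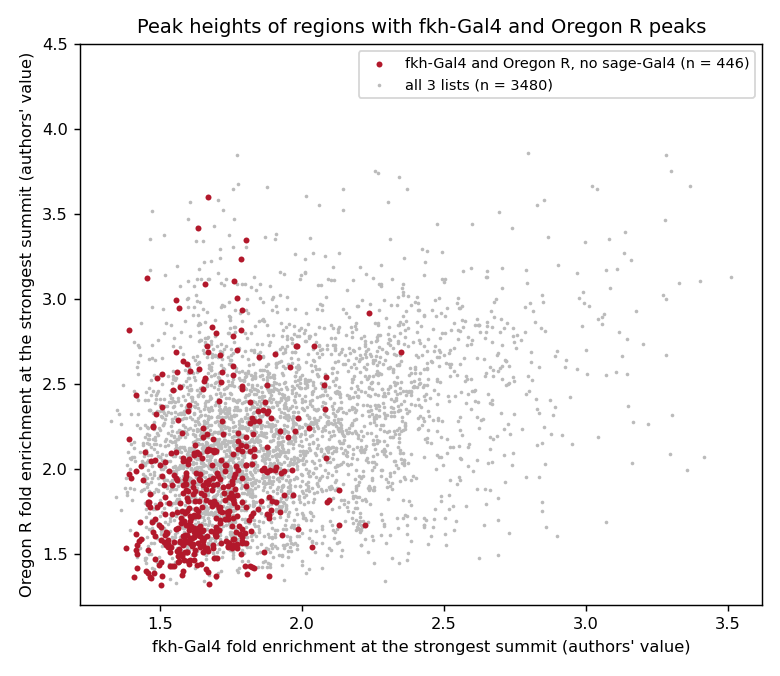
Fold enrichment at the strongest fkh-Gal4 summit (x axis) against that at the strongest Oregon R summit (y axis), both the authors' values, with 1 point per region. The 446 fkh-Gal4/Oregon R regions (red) lie at fkh-Gal4 folds of 1.38 to 2.35, at the low side of the 3480 regions of all 3 lists (grey), while their Oregon R folds reach 3.60.

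How often a sage-Gal4 peak was missing differed with height. Of the 3926 regions with fkh-Gal4 and Oregon R peaks, 11.4% had no sage-Gal4 peak. Ordered by fkh-Gal4 fold and divided into 5 equal bins, the share was 0.382% in the highest bin (3 of 786), then 3.31%, 12.7% and 16.6%, and 23.8% in the lowest (187 of 785). The same division by Oregon R fold gave 4.96%, 4.08%, 6.24%, 13.5% and 28.0%. With a −log10 q of at least 5 asked of the fkh-Gal4 and Oregon R peaks, and all sage-Gal4 peaks kept, 38 of 2002 regions (1.90%) lacked sage-Gal4. Whether sequencing depth or the caller's threshold sets which weak regions lack a sage-Gal4 peak was not tested, and depth is unknown from peak lists.

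**Figure D2:**
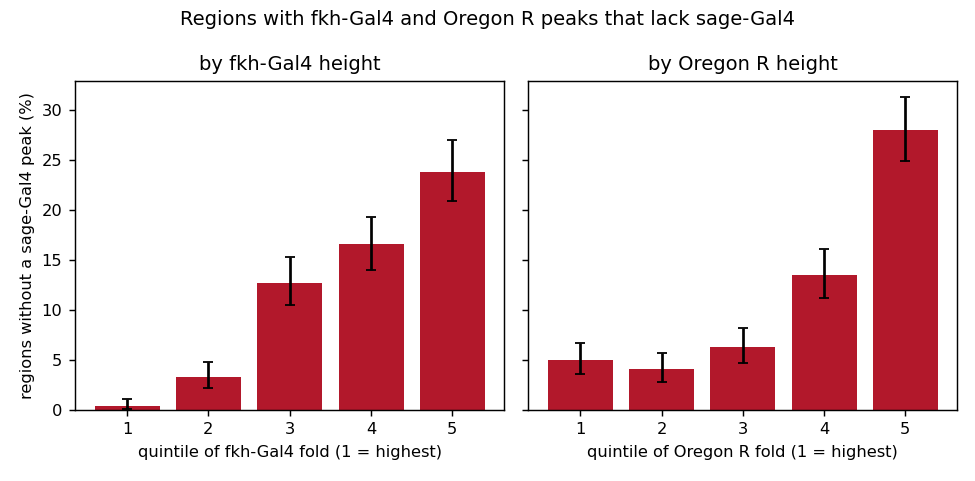
Share of the 3926 regions with fkh-Gal4 and Oregon R peaks that hold no sage-Gal4 peak, in 5 equal bins of fkh-Gal4 fold (left) and of Oregon R fold (right), bin 1 being the highest. Bars are percentages and whiskers 95% exact Clopper-Pearson intervals over regions; by fkh-Gal4 fold they run from 0.382% in bin 1 to 23.8% in bin 5.

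The absence of sage-Gal4 was often local. The closest sage-Gal4 peak lay 2 to 236903 bp from the region's edge, with a median of 1475 bp and quartiles of 449 and 5322 bp. For 184 of the 446 regions (41.3%, 95% exact Clopper-Pearson interval 36.6 to 46.0%) it was within 1000 bp, and for 29 within 200 bp. The intervals here and below cover counting error over regions only. In 138 of those 184 the nearby sage-Gal4 peak belonged to a region of all 3 lists, so that each of these lay within 1000 bp of a place where every list had a peak. In 27 it belonged to a region of sage-Gal4 and Oregon R, in 14 to one of both drivers only, and in 5 to sage-Gal4 alone. At the other end, 380 of 446 had a sage-Gal4 peak within 10000 bp, leaving 66 with none so near. Regions of fkh-Gal4 alone, which number 641, were closer to sage-Gal4 peaks, with a median gap of 615 bp and 67.7% within 1000 bp.

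**Figure D3:**
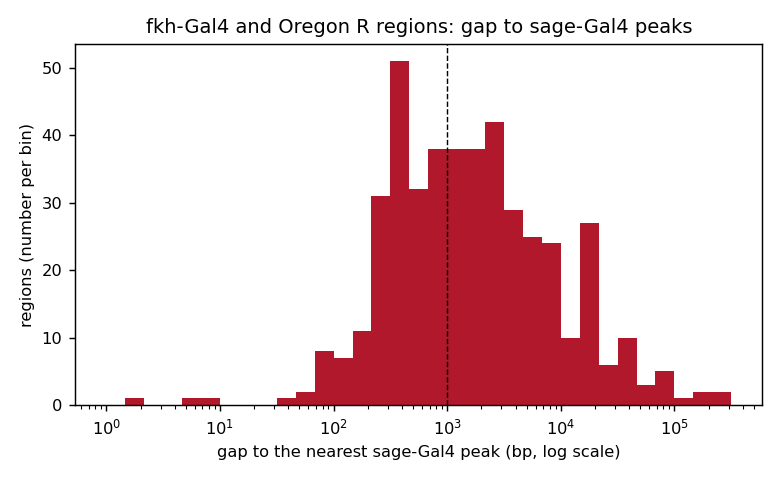
Number of fkh-Gal4/Oregon R regions by the gap between the region and the nearest sage-Gal4 peak (x axis, bp, log scale). The dashed line marks 1000 bp, with 184 of the 446 regions at or below it; the median is 1475 bp.

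The regions closest to the edge of the rule show how fine the division is. The smallest gap, 2 bp, was at chr2R:20830933-20831697 within insc and sktl, with folds of 1.79 in fkh-Gal4 and 1.65 in Oregon R, beside a sage-Gal4 peak of fold 2.02. Gaps of 5, 7, 45 and 50 bp followed in mdy, in RhoGAP19D, in shn and at RpL21. Just outside the rule, the smallest overlap of a sage-Gal4 peak with another peak in a region of all 3 lists was 18 bp, within mam, where the folds were 1.45 in fkh-Gal4, 1.47 in Oregon R and 1.54 in sage-Gal4. The next overlaps were 43 bp in sbb, 69 bp at sordd1, 73 bp at gus and 80 bp near Act5C. Only 5 of 3480 such regions overlapped by 100 bp or less. In 83 of the 3480 (2.39%) no fkh-Gal4 peak touched a sage-Gal4 peak, and an Oregon R peak joined them.

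The summits of fkh-Gal4 and Oregon R were mostly close, which the selection on overlapping peaks in narrow regions largely fixes, so their distances are a description. The strongest summits were 98.5 bp apart at the median, against 111 bp in regions of all 3 lists. They were within 100 bp in 225 of 446 regions (50.4%, exact interval 45.7 to 55.2%), against 1654 of 3480 (47.5%, 45.9 to 49.2%). The fkh-Gal4 summit lay inside an Oregon R peak in 383 regions (85.9%), against 95.1% in regions of all 3 lists, and in the other 63 regions it lay outside one. Most were simple: 410 held 1 fkh-Gal4 peak, 33 held 2 and 3 held 3, and 434 held 1 Oregon R peak. The median width was 550 bp (quartiles 384 and 898.5 bp), against 1424.5 bp for regions of all 3 lists, 728 bp for those of sage-Gal4 and Oregon R, and 219 bp for those of fkh-Gal4 alone. Width thus differed between the classes, and its part in the lack of a sage-Gal4 peak was not tested.

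Among the regions with 2 or more fkh-Gal4 peaks, the widest was at chr3R:31935827-31938848, inside heph, which encodes an RNA-binding protein of the PTB family. It measured 3022 bp, lay 40587 bp from a gene end and 38071 bp from a sage-Gal4 peak, and had folds of 1.79 in fkh-Gal4 and 2.93 in Oregon R. A region of 2750 bp lay between pim, the securin gene, and Cand1, at 133 and 149 bp. The region in ft described above measured 2292 bp, and was followed by those at Cchl, of 2083 bp, and at RnrS, a ribonucleotide reductase subunit gene, of 1842 bp.

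Relative to genes, the fkh-Gal4/Oregon R regions stood farther out than regions of all 3 lists and those of sage-Gal4 and Oregon R. Both of these classes hold a sage-Gal4 peak, and regions of Oregon R alone were not counted apart. The fkh-Gal4 summit was within 1000 bp of either end of a protein-coding gene in 182 of 446 regions (40.8%, exact interval 36.2 to 45.5%). The share was 59.5% (57.8 to 61.1%) for regions of all 3 lists, 65.0% (62.7 to 67.3%) for those of sage-Gal4 and Oregon R, and 50.6% for all 15071 merged regions. For regions of fkh-Gal4 alone it was 22.9%. Where a region had no fkh-Gal4 peak, its Oregon R summit was used here and below, or else its sage-Gal4 summit. The median distance to a gene end was 1935 bp, against 542 bp for all 3 lists, 207.5 bp for sage-Gal4 and Oregon R, and 2925 bp for fkh-Gal4 alone. A further 200 of the 446 regions (44.8%) lay inside a gene but over 1000 bp from any gene end, and 63 (14.1%) lay between genes, against 34.3% and 6.15% of regions of all 3 lists. The longest gene holding an inside region had a median length of 14083 bp, against 12136 bp for regions of all 3 lists and 2161 bp for all protein-coding genes.

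Among regions of like fkh-Gal4 height the share at gene ends was lower in 4 of the 5 bins. Within the lowest 2 of the 5 bins of fkh-Gal4 fold, 146 of 317 fkh-Gal4/Oregon R regions (46.1%, exact interval 40.5 to 51.7%) were at gene ends, against 784 of 1253 regions of all 3 lists (62.6%, 59.8 to 65.3%). In the middle bin it was 25 of 100 (25.0%, 16.9 to 34.7%) against 402 of 685 (58.7%, 54.9 to 62.4%). In the highest bin it was 2 of 3 against 55.6%. This split by height was chosen after the data were seen. Regions share libraries and neighbours and are not replicates, so these differences carry no p.

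**Figure D4:**
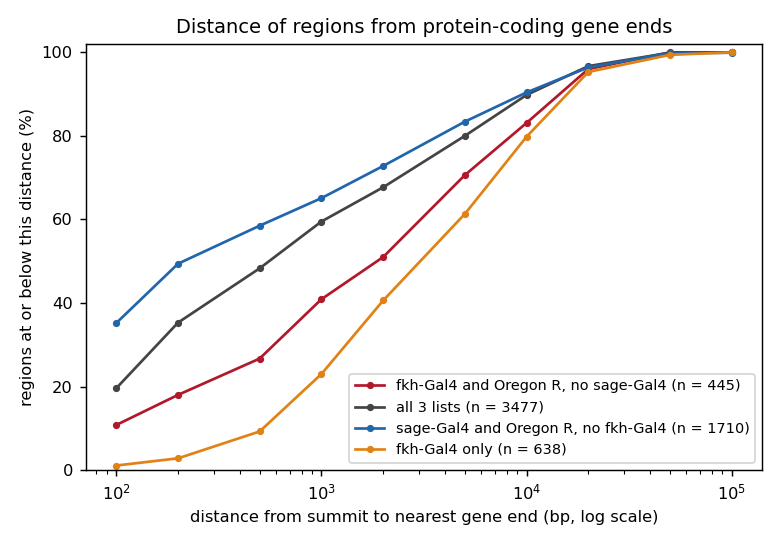
Share of regions (y axis, %) whose summit lies at or below a given distance from the nearest end of a protein-coding gene (x axis, bp, log scale), on the chromosome arms, with 1 line per class of region. At 1000 bp the fkh-Gal4/Oregon R regions reach 40.9%, between those of fkh-Gal4 alone (23.0%) and those of all 3 lists (59.5%).

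By chromosome arm, the share without sage-Gal4 was highest on chromosome 4. This small chromosome, largely packed as heterochromatin although its genes are active, held 12 of the 446 regions (2.69%, exact interval 1.40 to 4.65%). Regions of all 3 lists had 13 of 3480 there (0.374%) and those of sage-Gal4 and Oregon R 7 of 1711 (0.409%), but all merged regions had 294 of 15071 (1.95%), a share within the interval of the fkh-Gal4/Oregon R regions. Of the regions with fkh-Gal4 and Oregon R peaks on chromosome 4, 12 of 25 (48.0%, 27.8 to 68.7%) had no sage-Gal4 peak. On the large arms the share was 12.6% on 2L, 10.2% on 2R, 12.2% on 3L, 10.6% on 3R and 10.2% on X. The fkh-Gal4 list had 36 peaks on chromosome 4, the sage-Gal4 list 28 and the Oregon R list 294. The numbers are small, and nothing was tested. On X lay 78 of the 446 regions (17.5%), against 19.7% of regions of all 3 lists and 15.7% of all regions.

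**Figure D5:**
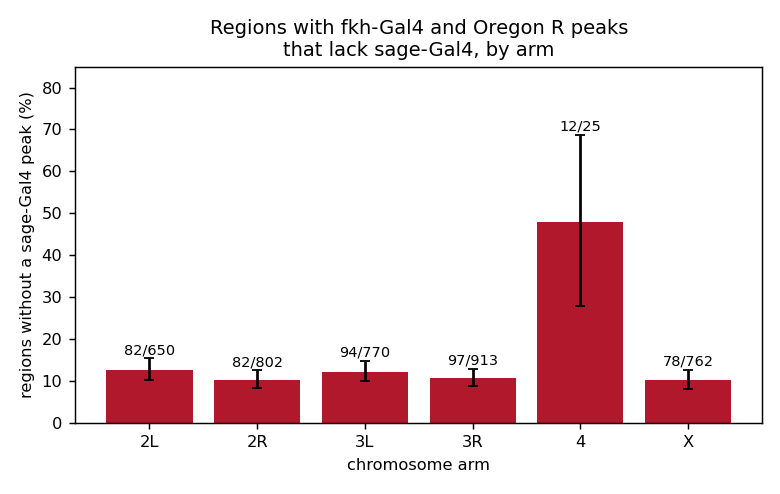
Share of regions with fkh-Gal4 and Oregon R peaks that hold no sage-Gal4 peak (y axis, %), by chromosome arm, with 95% exact Clopper-Pearson whiskers over regions and the counts above each bar. Chromosome 4 stands at 48.0% of 25 regions, the other arms between 10.2% and 12.6%.

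The 12 regions of chromosome 4 lay at or near genes of patterning and signalling as well as others. Besides that near fuss, the best ranked was inside Cadps, a gene of vesicle exocytosis, which had 2 regions: one at chr4:1232526-1234989 with folds of 1.63 in fkh-Gal4 and 2.10 in Oregon R, the other 18 bp from its end with 1.64 and 1.93. A region lay 3165 bp from ci, the effector of Hedgehog signalling, with folds of 1.50 and 1.66, and one inside pan, the TCF factor of Wnt signalling, with 1.82 and 1.42. One was inside ey, the Pax6 gene of the eye, with 1.58 and 2.07, and one inside sv, a Pax gene, with 1.69 and 1.94. Regions also lay at lgs, the BCL9 homologue of Wnt signalling, at Actbeta, an activin ligand gene, and at Rnf11. A pair of regions was broad, with widths of 11026 bp at anne and 10184 bp at MED26, and each held 1 fkh-Gal4 and 1 Oregon R peak. In that of anne the fkh-Gal4 summit was 3004 bp from the Oregon R summit. For 8 of the 12 the nearest sage-Gal4 peak was over 10000 bp away.

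Some members came in runs. Runs were not counted for other classes of region, so no comparison can be made. Of the 445 regions on the arms, 77 had another within 5000 bp and 158 within 20000 bp, and 18 runs of 3 or more, linked at up to 20000 bp, took in 56 of them. The largest runs held 4 regions. One crossed CG9121, eIF3h and qtc on 2L, with fkh-Gal4 folds of 1.39 to 1.83 and Oregon R folds of 1.61 to 2.57. The other ran from Moe, the moesin gene, to rdgA on X, with folds of 1.61 to 1.88 in fkh-Gal4 and 1.71 to 2.12 in Oregon R. Runs of 3 included one by noc, a zinc finger gene, with fkh-Gal4 folds of 1.50, 1.88 and 2.08, and one at the tal locus, which encodes small peptides of leg and epidermal development, where they were 2.03, 1.70 and 1.60. Another run of 3 lay in and near ptc, the Hedgehog receptor gene, with 1.68, 1.64 and 1.58.

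Within single genes, the span plus 1000 bp at either side held 3 or more regions in 5 cases, all long genes. In cic, of 51173 bp, 4 regions had fkh-Gal4 folds of 1.91, 1.88, 1.68 and 1.61 and Oregon R folds of 2.68, 2.34, 2.83 and 1.56. Their gaps to sage-Gal4 peaks ran from 71 to 1822 bp, and the gene also held 6 regions of all 3 lists. In mam, the Mastermind coactivator gene of the Notch pathway, 4 regions were weak, with fkh-Gal4 folds of 1.46 to 1.63, beside 11 regions of all 3 lists. The RasGAP gene raskol had 3, led by one with folds of 1.99 and 2.30, and luna, a KLF zinc finger gene, had 3 with fkh-Gal4 folds of 1.98, 1.95 and 1.48 and Oregon R folds of 2.22, 2.18 and 2.24. In shn, the zinc finger partner of the Dpp pathway, 3 regions had fkh-Gal4 folds of 1.60, 1.63 and 1.54, and 11 regions of all 3 lists stood in the same gene.

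At gene ends the regions touched few protein-coding genes. A gene is called bound here if either of its ends has a summit no more than 1000 bp away. The fkh-Gal4/Oregon R regions bound 311 of 13946 protein-coding genes (2.23%), against 24.0% for regions of all 3 lists and 13.0% for those of sage-Gal4 and Oregon R. These classes hold 446, 3480 and 1711 regions, and the shares are not scaled to class size. Of the 311, 115 were also bound by a region of all 3 lists, and 11 had 2 or more of the regions described here. As many as 264 of the 446 regions bound no gene, 71 bound 1 and 111 bound 2 or more. In 30 of 42 gene lists no gene was bound, but with 2.23% of all genes bound most lists of such size hold few or none. The highest share was 3 of 15 genes (20.0%), in the list of the COPI coat and retrieval.

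Secretory genes, the known targets of CrebA, were bound at 6 of 120 in 6 lists pooled (5.0%, with 2.23% of all genes). Regions of all 3 lists, a larger class, bound 101 (84.2%, with 24.0% of all genes). Of these 6 genes, 4 had a region of all 3 lists as well. Uggt, the folding sensor of ER glycoproteins, carried the strongest, with folds of 1.93 in fkh-Gal4 and 1.98 in Oregon R and a summit 46 bp from the gene end. The gene opm, of the p24 cargo receptor family, had 1.65 and 1.78 at 194 bp. In the COPI and retrieval list 3 of 15 genes were bound: the SNARE genes Use1 (1.61 and 2.57) and Sec20 (1.53 and 1.56), and zetaCOP, a coat subunit (1.42 and 1.42). The region at Use1 was nearer to Dhpr, that at Sec20 nearer to CG46303 and that at zetaCOP nearer to CG13032. At zetaCOP the −log10 q in fkh-Gal4 was only 1.5. The sixth gene, wol, an enzyme of N-glycan precursor synthesis, was 913 bp from a summit nearer to Scgalpha. None of the 22 ER translocation genes was bound. By position inside the gene, Hsc70-3, the BiP chaperone (1.61 and 1.59), Grp170, its exchange factor (1.72 and 1.56), and alphaCOP (1.61 and 1.55) also held a region over 1000 bp from a gene end.

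Atf6, the membrane-bound bZIP sensor of the unfolded protein response, had a region of its own 201 bp from its end at chr2R:5143977-5145057. Its folds were 1.94 in fkh-Gal4 and 1.99 in Oregon R, its −log10 q in fkh-Gal4 was 6.83, and the nearest sage-Gal4 peak was 16949 bp away. It was the only bound gene of 17 in the unfolded protein response and ER degradation list (5.88%) and of 19 in the list of CREB, ATF and AP-1 genes (5.26%), with 2.23% of all protein-coding genes bound; a single gene sets each share. The related gene Atf3 had a region inside its span, 7718 bp from a gene end, with 1.79 and 2.10. A region inside cnc, the Nrf2 homologue, had 1.58 and 1.50. The unfolded protein response and ER degradation list is not complete. Bound genes outside it include S1P (1.66 and 1.92), BI-1 (1.71 and 1.78) and Faf2 (1.62 and 2.14), picked out after their values were seen. The regions at S1P and Faf2 were nearer to CG11307 and Jwa.

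In the lists of tissue genes 0 or 1 gene was bound, where 2.23% of all protein-coding genes were, a share at which lists of this size hold few. The tracheal list had 1 of 19, uif, which encodes an apical membrane protein of tracheal cells, with folds of 1.77 in fkh-Gal4 and 3.01 in Oregon R, a summit 98 bp from the gene end and a sage-Gal4 peak no nearer than 16140 bp. The muscle list had 1 of 18, up, the troponin T gene, with 1.97 and 1.85 and a summit 79 bp away. None was bound among 19 foregut and hindgut regulators, 15 midgut and endoderm regulators, 14 Malpighian tubule genes, 17 epidermal and cuticle genes, 20 neuronal genes, 10 glial genes, 15 hemocyte and fat body genes, 17 salivary gland transcription factor genes and 14 other salivary gland genes. Among genes of wide use, 3 of 81 cytosolic ribosomal protein genes were bound (RpS20, RpL21 and RpS25, fkh-Gal4 folds 1.60, 1.70 and 1.48), 2 of 73 mitochondrial ones (mRpL1 and mRpL28) and 1 of 48 proteasome genes (Rpt3R). The region at mRpL1 was nearer to nac. That at Rpt3R was nearer to Alg12, a bound gene outside the lists, at 70 against 89 bp. None of the 117 cuticular protein genes, 23 Rab genes and 16 V-ATPase genes listed was bound. A V-ATPase subunit gene outside that list, VhaM9.7-c, was bound, with folds of 1.43 in fkh-Gal4 and 2.02 in Oregon R and a summit 37 bp from its end, and was picked out after its values were seen. The genes whose sequences a transgene or driver can carry, CrebA, fkh, sage and w, held none of the 446 regions.

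Since most of the regions lay away from gene ends, genes were also counted by span, that is with a summit inside the gene or within 1000 bp of it, a rule added after the data were seen. By span 496 of 13946 genes held a region (3.56%), and the share followed gene length: 2.28% of genes up to 2000 bp, 8.08% of those above 10000 and up to 50000 bp, and 15.3% of those above 50000 bp. Regions of all 3 lists took 27.2% of all genes by this rule. Among genes above 10000 bp, 183 of 1984 (9.22%) held an fkh-Gal4/Oregon R region. List counts below are given over all genes of a list, to be read against 3.56%, and over its genes above 10000 bp, to be read against 9.22%.

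Of 18 EGF receptor pathway genes 6 held a region by span (33.3%), each of them among the 10 genes of the list above 10000 bp. They were aos, a secreted inhibitor of the receptor, with 2 regions, the stronger at folds of 1.89 in fkh-Gal4 and 2.30 in Oregon R; ru, a rhomboid protease gene (1.79 and 2.47); Raf, the kinase (1.83 and 2.12); pnt, the ETS effector (1.53 and 1.99); sty, the inhibitor Sprouty (1.58 and 1.86); and Egfr itself (1.61 and 1.72). The summit was 2351 bp or more from any gene end in each. The region in ru also lay in Ptp61F, and CG33158 spans aos, so that neighbours are counted with the same region. Regions of all 3 lists stood in 11 of the 18.

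In the Wnt list 5 of 20 genes held a region by span: fz, the receptor, with 2 (the stronger at 1.73 in fkh-Gal4 and 2.03 in Oregon R), nkd, a feedback inhibitor (1.51 and 2.56), sgg, the GSK3 kinase (1.76 and 1.55), pan and lgs. Of its genes above 10000 bp it was 4 of 10. Polarity and junction genes had 4 of 20, and 4 of 12 above 10000 bp: sdt, of the Crumbs complex, with 2 (1.85 and 2.28 in the stronger), scrib with 2 (1.87 and 1.98), l(2)gl (1.52 and 2.04) and Fas3, a septate junction protein gene (1.71 and 1.64). Salivary gland genes had 3 of 14, and 3 of 8 above 10000 bp: pip, a sulfotransferase-like gene (1.76 and 1.59), Papss, the gene for PAPS synthase (1.83 and 1.41), and Gmap, a golgin gene (1.80 and 1.43). All of these 3 had an Oregon R fold under that list's median for the 446 regions. Of the salivary gland transcription factor genes, hth (1.73 and 1.70) and sv held 1 each, which is 2 of 17, and 2 of 9 above 10000 bp. Regions of all 3 lists, a larger class, also stood in many genes of these lists, with 27.2% of all genes. They were in 12 of the 20 Wnt genes and 12 of the 20 polarity and junction genes. Of the salivary gland genes they were in 7 of 14, and of the transcription factor genes in 11 of 17.

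Other pathway lists held 1 to 3 genes by span, each of them above 10000 bp. They included tkv, the Dpp receptor gene (1.90 in fkh-Gal4 and 1.81 in Oregon R), with shn, numb with mam among the matched genes of the Notch list, EcR (1.56 and 2.10) and Eip75B (1.67 and 1.94) among ecdysone genes, and InR (1.64 and 1.56) and foxo (1.51 and 2.36) in the insulin and TOR list. In lists of other kinds, Tm1, a tropomyosin gene, had 1.42 and 2.44, and robo2, an axon guidance receptor gene, 1.66 and 1.85. Gli, a glial junction gene of only 6757 bp, had 1.76 and 1.95. Among actin genes, zip, the myosin heavy chain gene (1.57 and 2.28), and chic, the profilin gene of 8904 bp (1.69 and 1.54), held 1 each. Of cell cycle genes, fzr, an activator of the anaphase-promoting complex (1.82 and 2.10), held 1. None of the genes matched in the foregut and hindgut, midgut, epidermal, hemocyte, Polycomb and trithorax, and gap, pair-rule and segment polarity lists held one. These lists are not complete. Delta, the Notch ligand gene, stands in the foregut and hindgut list and in the Notch list under a symbol that fits more than 1 gene, so it is in neither count, yet it held a region with folds of 1.76 in fkh-Gal4 and 2.09 in Oregon R. Su(z)2, a Polycomb group gene in no list, held one with 1.44 and 1.93. Both were picked out after their values were seen.

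Genes of non-coding RNA were near summits at shares of 0 to 2.07%, with 2.23% of protein-coding genes. Of 290 tRNA genes 6 had an end within 1000 bp of a summit (2.07%), in 4 regions, among them tRNA:Leu-TAA-1-1 with folds of 1.96 in fkh-Gal4 and 1.99 in Oregon R and tRNA:SeC-TCA-1-1, the selenocysteine tRNA gene, with 1.62 and 1.87. Of 260 miRNA genes 5 did (1.92%): mir-275 and mir-305, which are clustered, shared a region on 2L with 1.72 and 1.89, mir-996 had 1.62 and 1.56, mir-2282 had 1.58 and 1.86, and mir-2493 had 1.67 and 1.32. Of 269 snoRNA genes 2 did (0.743%), both at the region of RpS20, while lncRNA genes had 23 of 1995 (1.15%) and snRNA genes none of 32.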

How the data were processed

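CrebA binding was read from 3 peak lists. Per the submitters' processing notes, BWA served as aligner, dm6 as genome build and MACS2 2.1.0.20140616 as peak caller. The use of the inputs in the calls is not given in the sources used here. In columns, the deposited narrowPeak lists hold a fold ratio at the summit, −log10 p and −log10 q (a p-value and q-value of the caller), an integer score, not used, and the summit offset. Depth is unknown.

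Peaks were merged at 1 bp overlap. Gene positions were those of RefSeq on release 6, the same assembly as dm6. Strand was not given, so gene starts and ends were treated alike. Of the gene list symbols, 14 did not match exactly 1 gene and were left out, though aos, given also under an older name, was counted. Members, lists and the rule for named genes (the 12 best ranked regions, those nearest the rule's edge, the widest with several fkh-Gal4 peaks, genes with 3 or more, and bound genes of each list) were chosen with earlier results of these data known. The planned motif search needs promoter sequences, and was not run. Intervals are exact Clopper-Pearson at 95%. Merging was tested on simulated peaks with known overlaps. These held no small overlaps, no narrow gaps and no peaks joined only through another list, so regions at the rule's edge were not covered. Versions were Python 3.11.15, scipy 1.17.1, pandas 2.3.3, numpy 2.4.6 and, for plots, matplotlib 3.10.9.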

Additional observations from a re-analysis of the deposited data

How the results depend on the processing

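Of 24 alternatives, 8 stayed within 1.5 times of a count or within the interval of a share. The number of regions was 405 with a reciprocal overlap of 50%, 604 with summits within 150 bp and 417 when a sage-Gal4 peak within 200 bp also removed a region. It fell to 218 with a −log10 q of at least 5 in every list, to 152 with at least 10, and to 38 with at least 5 for fkh-Gal4 and Oregon R and all sage-Gal4 peaks kept. Fewer peaks enter each of these 3 counts. The share at gene ends was 26.7% with a window of 500 bp, 50.9% with 2000 bp, 34.7% for the 49 regions with a fkh-Gal4 −log10 q of at least 5, and 46.1% for the lowest 2 bins of fkh-Gal4 fold. Bound genes numbered 173 and 495 with those windows, and 496 by gene span. Summits were within 50 bp in 31.4% and within 200 bp in 76.5%. A sage-Gal4 peak lay within 500 bp in 26.9% and within 2000 bp in 57.2%. On X lay 12.2% of the regions with a fkh-Gal4 −log10 q of at least 5; the cause was not tested. Ranked by −log10 q, the median percentile in the fkh-Gal4 list was 29.7. The alternatives by the lowest 2 bins and by gene span were chosen after the data were seen. The motif share was not run. No paired analysis was possible because each group has 1 library, and none could be left out. How firmly the lack of a sage-Gal4 peak holds for a weak region is unknown.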
